A study of Mus musculus with 8 samples.

Results

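The 200 genes described here are the protein-coding genes of the deposited table whose symbol is Zfp followed by digits and whose mean raw count over the 8 libraries was at least 100. The table held 370 protein-coding genes with such a symbol among 56859 genes, and 9310 of its 21791 protein-coding genes reached the same mean count. Zfp stands for zinc finger protein, a naming series and not a single family. The members were thus selected on their mean raw count, so that being expressed is no finding about them. Just inside the limit lay Zfp184 with a mean count of 100.1, Zfp189 with 101.3 and Zfp429 with 101.6, and just outside it lay Zfp579 with 98, Zfp788 with 97 and Zfp90 with 96.3. The mean covers both times, so a member may have had a lower mean at 1 of them, which was the case for 10 members at 6 h and for 13 at 9 h. All 200 members passed the filter on low counts in each test.

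Messenger RNA was sequenced from BV2 cells, an immortalised mouse line of microglia, the macrophages of the brain, labelled wild type. Every group, the controls included, went through deprivation of oxygen and glucose, a culture model of stroke. The control groups had no further agent, and the other groups received 10panx1, a peptide that blocks channels formed by pannexin 1. At 9 h each treatment had 3 libraries, and at 6 h each had 1. One library, 10panx1 at 6 h, carries the peptide in its title but not in its treatment label, and the title decided its group. The labels give 9 h of deprivation and then recovery in normal medium without saying what the 6 h and 9 h count, and no control peptide is named. Nothing in the labels says that the replicates were separate cultures, so the spread behind each p-value may be technical only.

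Between 18056693 and 23164860 reads were counted in a library. The members took 0.622% and 0.62% of the counts in the control and 10panx1 libraries at 6 h, and between 0.579% and 0.601% in the 6 libraries at 9 h. All 12 microglia and macrophage markers were detected, with a summed level of 2028 to 2354 CPM, counts scaled by library size. Control replicate 3 at 9 h differed from the rest in 82 genes, none of them a member, whose counts were more than 10 times those in each other library. Its 5 hepatocyte markers summed to 206.8 CPM and its 5 fibroblast markers, among which Lum was at 0 in every library, to 40.4 CPM. Hepatocyte markers summed to at most 0.305 CPM at 6 h and 1.03 CPM with 10panx1 at 9 h, and fibroblast markers to at most 0.423 and 1.33 CPM. Astrocyte markers summed to 1.48 to 3.51 CPM with Aqp4 at 0, neuron markers to 0.106 to 0.915 CPM, and oligodendrocyte markers to 22.9 to 39.3 CPM with Mog and Mobp at 0. The part of other cells' RNA in the results was not tested. Leaving that library out gave 5 members higher and 4 lower with 10panx1 at 9 h in place of 5 and 7. Over all genes it gave 841 calls in place of 1233.

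C2H2 zinc fingers are small folds held by a zinc ion, and each can read a few bases of DNA, so that a row of fingers recognises a longer site. Many Zfp proteins also carry a KRAB box, which recruits the corepressor Trim28 and with it enzymes that write closed chromatin, and these proteins are best known for silencing retroelements. Others lack the box and act as activators at promoters, as parts of chromatin complexes, or, like the CCCH protein Zfp36, bind RNA in place of DNA.

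The members ranged widely in level. In TPM, which scales counts by transcript length and library size, the mean level over the 8 libraries had a median of 12.04 TPM over the 200 members and ran from 1.6 to 201 TPM. A mean of at least 50 TPM was reached by 10 members, and 34 lay under 5 TPM. The highest was Zfp106, a large RNA-binding protein whose loss in mice causes neuromuscular degeneration, at 201 TPM. Zfp207, a spindle protein that binds Bub3, followed at 175 TPM. Zfp706, a repressor of Klf4 in mouse embryonic stem cells, Zfp330, a nucleolar protein, and Zfp36 came next, at 76.4, 76 and 75.3 TPM. None of these 5 had a KRAB box or annotation. The 101 members with one had a lower median level than the 99 without, 7.74 against 16.6 TPM, which is a description with no test.

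With 10panx1 at 9 h, few members changed, and by little. Of the 200 members 5 were higher and 7 lower than in control libraries, which is 6% of them, where 9.21% of all 13392 tested genes were called (edgeR quasi-likelihood test, adjusted p under 0.05). By direction the background was 5.06% higher and 4.14% lower, and among protein-coding genes with the same mean count it was 11.7% in either direction, 6.59% higher and 5.12% lower. The share of members called thus lay below the share of genes called, a difference that was not tested. No member reached a 2-fold change, called or not, and only 143 of 13392 tested genes and 7 of 9309 comparably expressed ones did. The median log2 fold change over members was 0.017, against -0.0031 over all tested genes. The groups did not overlap for 56 members, or 28%, against 28.9% of all tested genes. An unadjusted p under 0.05 was found for 43 members. The same share over all tested genes was not counted, so this number cannot be read against a background. In bulk RNA fewer cells of a type and less RNA per cell cannot be told apart.

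**Figure D1:**
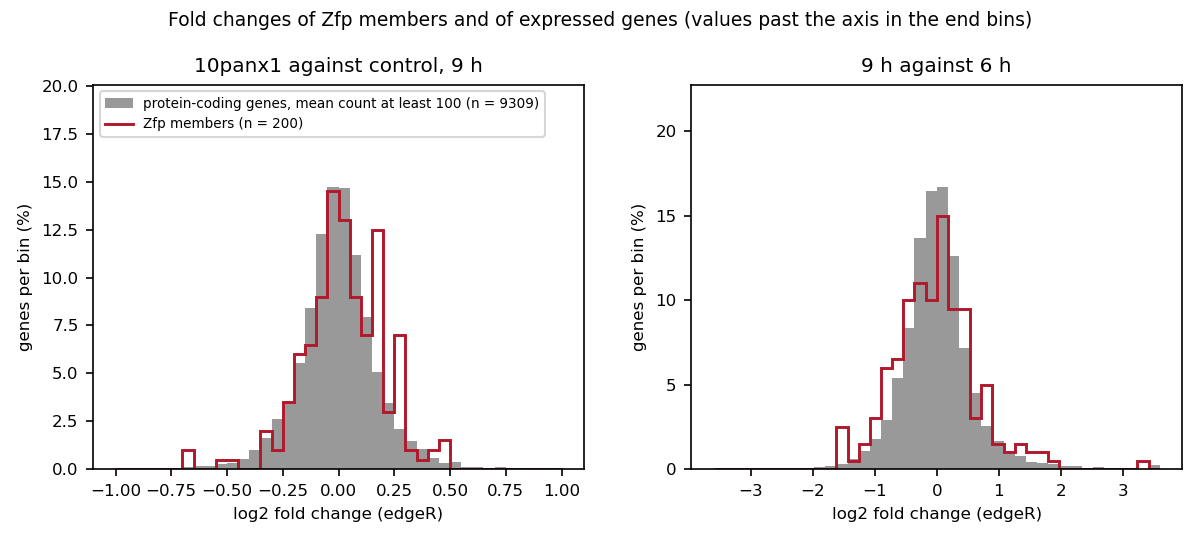
Histograms of edgeR log2 fold changes (x axis) as a percentage of genes per bin (y axis), for the 200 members (red line) and for tested protein-coding genes with a mean count of at least 100 (grey), with 10panx1 against control at 9 h on the left and 9 h against 6 h on the right. The members' changes with 10panx1 lay between -0.66 and 0.48, and their changes over time between -1.59 and 3.39.

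Among called members the 2 largest rises were in members without a KRAB annotation or box, Zfp469 (chromosome 8, 122985359 to 122999389, plus strand) and Zfp462 (chromosome 4, 54945048 to 55083563, plus strand), in coordinates whose build the table does not name. Zfp469, whose human counterpart is mutated in brittle cornea syndrome, lay at 25.3, 26.3 and 27 CPM in the controls and 35.7, 40.5 and 33.6 CPM with 10panx1, and its log2 fold change was 0.48 (SE 0.0813, edgeR adjusted p = 0.00289). Zfp462, which in mouse embryonic stem cells helps to place heterochromatin, lay at 25.2, 22.4 and 22.5 CPM in the controls and 30.4, 32.7 and 33 CPM with 10panx1, with a log2 fold change of 0.45 (SE 0.0773, edgeR adjusted p = 0.00306). In both genes each 10panx1 library was above each control library. At 6 h the levels were 28.7 and 32.8 CPM for Zfp469 and 12 and 17.6 CPM for Zfp462 in the control and the 10panx1 library. The KRAB member Zfp189 had a log2 fold change of similar size, 0.47 (SE 0.177, edgeR adjusted p = 0.116), and was not called.

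Zfp236, a protein with 30 matches to the C2H2 finger pattern used here, also rose. It lay at 48.7, 50.05 and 55 CPM in the controls and 61.9, 64.3 and 65.2 CPM with 10panx1, a log2 fold change of 0.31 (SE 0.0643, edgeR adjusted p = 0.00796). Zfp287, which has 14 such matches, lay at 27.7, 27 and 27.4 CPM in the controls and 30.7, 36.4 and 33.9 CPM with 10panx1. Its log2 fold change was 0.29 (SE 0.078, edgeR adjusted p = 0.0287). Zfp106, the most abundant member, lay at 652, 683 and 716 CPM in the controls and 762, 753 and 799 CPM with 10panx1, with a log2 fold change of 0.17 (SE 0.0475, edgeR adjusted p = 0.036). These 3 rises were small, at most 1.24-fold, and in none did the groups overlap. Zfp36 (tristetraprolin), which binds AU-rich elements in mRNAs of cytokines such as Tnf and hastens their decay, lay at 71.9, 79.2 and 78.2 CPM in the controls and 86.9, 84.8 and 89.1 CPM with 10panx1, also without overlap. Its log2 fold change was 0.18 (SE 0.0553, edgeR adjusted p = 0.053), so it was not called, whereas DESeq2 gave an adjusted p of 0.0473.

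Among the falls, Zfp296, which promotes reprogramming of mouse fibroblasts to pluripotency, lay at 5.6, 4.77 and 5.25 CPM in the controls and 3.56, 3.66 and 2.68 CPM with 10panx1, a log2 fold change of -0.66 (SE 0.172, edgeR adjusted p = 0.0264). It overlaps Gemin7, which had a mean count of 435.6, on the opposite strand, and since the strand setting of the counting is not given, reads of both genes cannot be told apart where they overlap. Zfp658, a KRAB protein whose human counterpart controls zinc-responsive genes, lay at 10.8, 10.3 and 9.97 CPM in the controls and 6.22, 5.97 and 7.51 CPM with 10panx1, with a log2 fold change of -0.66 (SE 0.125, edgeR adjusted p = 0.00527). Both genes were at low levels, and in both each 10panx1 library was below each control library. The KRAB members Zfp791 and Zfp707 fell as well. Zfp791 lay at 7.88, 7.29 and 6.35 CPM in the controls and 5.69, 4.29 and 5.23 CPM with 10panx1, with a log2 fold change of -0.50 (SE 0.15, edgeR adjusted p = 0.0487). Zfp707 lay at 17, 15.7 and 13.5 CPM in the controls and 10.9, 12 and 10.6 CPM with 10panx1, with a log2 fold change of -0.47 (SE 0.107, edgeR adjusted p = 0.0139).

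The other 3 falls were in members without a KRAB box, at higher levels and of smaller size. Zfp367 lay at 61.3, 62.1 and 59.5 CPM in the controls and 51.2, 44.8 and 51.2 CPM with 10panx1, a log2 fold change of -0.32 (SE 0.0659, edgeR adjusted p = 0.00875). Zfp654 lay at 70.8, 70.1 and 69.6 CPM in the controls and 63.8, 56.6 and 62 CPM with 10panx1, with -0.21 (SE 0.0589, edgeR adjusted p = 0.0374). Zfp131, a BTB domain protein, lay at 75.3, 77.8 and 79.6 CPM in the controls and 69.8, 63.2 and 70.2 CPM with 10panx1, with -0.20 (SE 0.0584, edgeR adjusted p = 0.0464). In each of the 3 the control values were the higher ones without overlap.

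**Figure D2:**
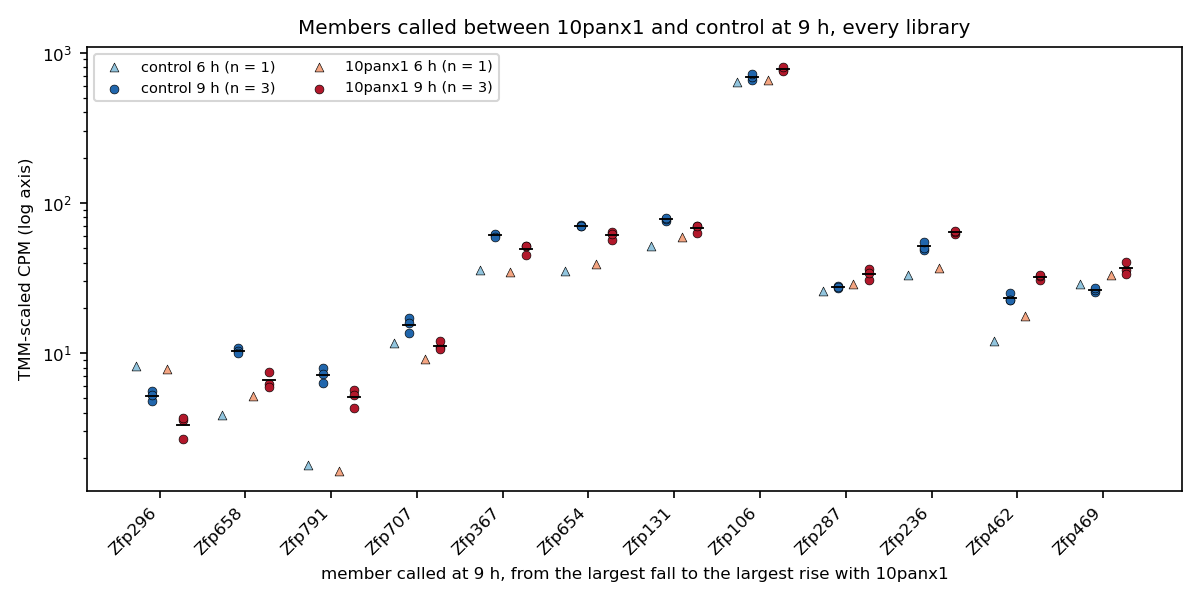
TMM-scaled CPM on a log axis for the 12 members called with 10panx1 at 9 h, ordered from the largest fall to the largest rise. Circles are the 3 libraries per treatment at 9 h with their mean as a bar, and triangles are the single libraries at 6 h. At 9 h the groups do not overlap in any of the 12 members, and Zfp106 lies between 652 and 799 CPM, far above the others.

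Leaving out 1 library at a time, 5 of these 12 calls were kept each time, those of Zfp236, Zfp367, Zfp462, Zfp469 and Zfp658. The other 7 kept their direction and lost the call without some library, with these adjusted p values from edgeR. Zfp106 lost it without control replicate 1 (0.162), control replicate 2 (0.117), 10panx1 replicate 2 (0.0504) or 10panx1 replicate 3 (0.146). Zfp287, Zfp131 and Zfp654 were not called without control replicate 1, 2 or 3 or without 10panx1 replicate 2 or 3. Their values in these fits ran from 0.0712 to 0.126 for Zfp287, 0.0684 to 0.148 for Zfp131 and 0.0794 to 0.12 for Zfp654. Zfp791 was not called without control replicate 1 or 2 or 10panx1 replicate 2 or 3, with 0.105 to 0.164. Zfp296 was not called without control replicate 1 (0.0953), control replicate 3 (0.0638) or 10panx1 replicate 3 (0.113), and Zfp707 without control replicate 1 (0.0664), control replicate 2 (0.0529) or 10panx1 replicate 3 (0.0603). The call of each of the 12 was lost with limma on log2(TPM + 1) without a TPM filter, a fit that called 0 of all genes. With a TPM filter, limma on log2(TPM + 1) and on log2(TPM + 0.1) called 368 and 371 genes. Both fits kept the calls of Zfp367 and Zfp658 and lost the others, among them those of Zfp236, Zfp462 and Zfp469. The number of members called higher was 12 without 10panx1 replicate 1, and 3 without control replicate 1, control replicate 2, 10panx1 replicate 2 or 10panx1 replicate 3. The number called lower was 2 without control replicate 1 or 10panx1 replicate 3, 3 without control replicate 2, and 4 without control replicate 3 or 10panx1 replicate 2. Calls over all genes moved as well, from 1233 in the main fit to 1433 without 10panx1 replicate 1. They were 676 and 600 without 10panx1 replicates 2 and 3, and 598, 695 and 841 without control replicates 1, 2 and 3.

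At 6 h there was 1 library per treatment and so no test. The log2 ratio of 10panx1 to control over the members had a median of -0.002, from -0.56 to 0.55, with 98 members above 0 and none at 1.5-fold or more. Of the 12 members called at 9 h, 9 had a ratio of the same sign at 6 h, and Zfp131, Zfp654 and Zfp658 had the opposite sign. Zfp658 for instance lay at 3.87 and 5.19 CPM in the control and the 10panx1 library at 6 h. The difference between the 10panx1 effects at both times was tested as an interaction, and no member was called, nor any of 15331 genes, which is 0.0% (edgeR). The lowest adjusted p of a member was 0.848, and DESeq2 called no gene, while edgeR without a filter on low counts called 34 genes and no member. At an unadjusted p under 0.05 there were 15 members, or 7.5%, and 874 genes, or 5.7%. With a single library per treatment at 6 h, this does not show that the effects were alike.

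Between 6 h and 9 h most members changed. Of the 200 members 65 were higher and 76 lower at 9 h, or 70.5%, where 63.1% of all 14315 tested genes were called (edgeR, 8 libraries, treatment as a covariate). The background was 31.6% higher and 31.5% lower over all tested genes, and 68.6% in either direction among protein-coding genes with the same mean count (33.6% higher, 34.9% lower), so that the members' share lay near that of comparably expressed genes. The median log2 fold change over members was -0.013, against -0.00088 over all tested genes. A called change of at least 2-fold was seen in 12 members that rose and 11 that fell. Of all 14315 tested genes, 1497 rose and 1141 fell by that much with a call. Among 9310 comparably expressed genes 403 rose and 286 fell. These shares were not compared by a test. Both libraries at 6 h lay on one side of all 6 at 9 h in 143 members, or 71.5%, against 61.2% of all tested genes, and 133 of the 141 called members were among them. The labels do not say whether the libraries of both times were made together, so that time cannot be told apart from a batch. With limma on log2(TPM + 1) the split was 46 higher and 84 lower, and with trends of transcript length and GC removed it was 52 and 93. All genes moved likewise in these fits, from 50.1% of calls higher to 37.6% and 41.3%, and the median log2 fold change of all genes with limma was -0.11.

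Zfp651 (chromosome 9, 121588396 to 121600808, plus strand), whose human counterpart is ZBTB47, rose most, from 1.87 and 1.27 CPM at 6 h in the control and the 10panx1 library to 13 to 19.9 CPM at 9 h. Its log2 fold change was 3.39 (SE 0.166, edgeR adjusted p = 2.87e-11). Zfp954 rose from 13.3 and 12.1 CPM to 36.5 to 47.7 CPM, a log2 fold change of 1.78 (SE 0.0907, edgeR adjusted p = 4.54e-11). Zfp791 rose from 1.78 and 1.64 CPM to 4.29 to 7.88 CPM, a log2 fold change of 1.82 (SE 0.193, edgeR adjusted p = 3.26e-07). In these 3 genes every library at 9 h was at least 2 times as high as both at 6 h, and Zfp791 was the only 1 of the 10 largest risers that was also called with 10panx1 at 9 h, as lower.

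Zfp292, a protein with 3 matches to the finger pattern used here, rose from 30.3 and 36.6 CPM to 95.3 to 122 CPM, a log2 fold change of 1.68 (SE 0.0933, edgeR adjusted p = 1.28e-10). Zfp703, a corepressor that lacks a match to the finger pattern and is known as a breast cancer oncogene in humans, rose from 20.7 and 24 CPM to 52.2 to 65.9 CPM, with 1.39 (SE 0.0909, edgeR adjusted p = 9.37e-10). Zfp202, whose human counterpart represses genes of lipid metabolism, rose from 4.83 and 5.93 CPM to 14.6 to 16 CPM, with 1.51 (SE 0.119, edgeR adjusted p = 9.5e-09). The KRAB members Zfp748, Zfp184, Zfp180 and Zfp52 completed the 10 largest rises, with log2 fold changes of 1.53, 1.34, 1.27 and 1.17. KRAB members and others thus stood side by side among the risers.

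The largest fall was in Zfp866 (chromosome 8, 70213976 to 70243828, minus strand), a KRAB member, from 20.4 and 21.3 CPM at 6 h to 5.95 to 8.67 CPM at 9 h, a log2 fold change of -1.59 (SE 0.116, edgeR adjusted p = 3.59e-09). It overlaps Atp13a1, which had a mean count of 2474, on the opposite strand. Zfp326, known in human cells from a complex that couples transcript elongation to splicing, fell from 51.4 and 58.5 CPM to 16.4 to 20.8 CPM, with -1.52 (SE 0.0857, edgeR adjusted p = 1.52e-10). Zfp446 fell from 45.8 and 46.4 CPM to 13.4 to 19.6 CPM, with -1.51 (SE 0.0947, edgeR adjusted p = 5.41e-10). In all 3 the libraries at 6 h were more than 2 times as high as the highest at 9 h. Zfp626 fell from 12.1 and 13.5 CPM to 3.51 to 5.59 CPM, with -1.46 (SE 0.132, edgeR adjusted p = 5.3e-08). Zfp239, which binds both DNA and RNA, fell from 11.1 and 12.1 CPM to 3.94 to 4.88 CPM, with -1.45 (SE 0.124, edgeR adjusted p = 2.54e-08). The next falls were in Zfp251, Zfp362, Zfp422, Zfp944 and Zfp825, with log2 fold changes of -1.31, -1.19, -1.10, -1.09 and -1.02. Of these fallers Zfp825 shares 28.7% of its 50-base stretches with other genes, Zfp866 12.01%, Zfp944 10.4% and Zfp422 7.52%, most of all with Gm46430, Gm20422, Zfp942 and Zfp422-ps, in that order, so their counts depend on how reads that map to several places were treated, which is not known here.

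**Figure D3:**
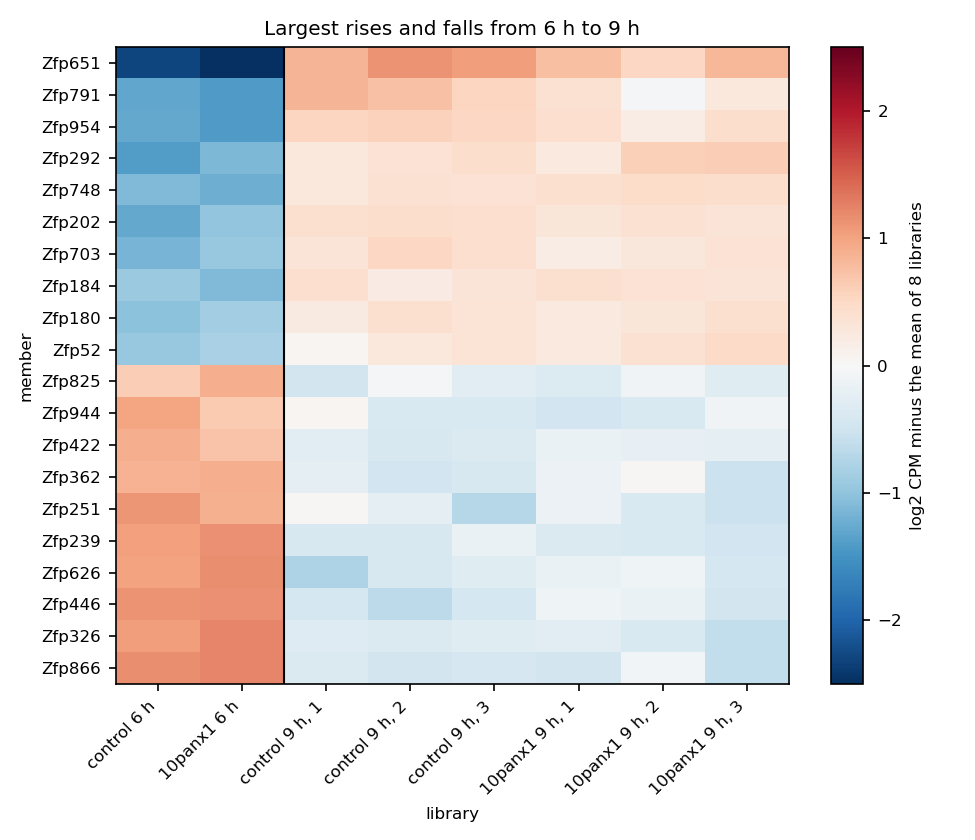
Colour shows log2 TMM-scaled CPM minus the member's mean over the 8 libraries (rows, the 10 largest rises and 10 largest falls among called members without overlap between times; columns, libraries), with the 2 libraries at 6 h left of the line and colours ending at 2.5. Both libraries at 6 h share their colour in every row, and the rows of Zfp651 and Zfp866 stand at the top and bottom with log2 fold changes of 3.39 and -1.59.

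Promoter windows were read for these genes to show the sequence next to the largest changes over time. RefSeq windows from 250 bases before to 50 bases after the start (GRCm38.p6) matched 165 of the 200 members by symbol. Below are the 80 bases before the start, 5′ to 3′ in the direction of the gene, for the first 4 risers and the first 4 fallers with an entry. Zfp791 and Zfp239 have more than 1 listed start, and the first is shown. The GRCm38.p6 positions of Zfp651 and Zfp866 below do not match their gene positions given above, whose build is not named. Distances between both kinds of position therefore have no meaning. Capitals mark matches on either strand to any of the 9 motifs listed after the sequences (GGGCGG reads CCGCCC on the opposite strand). The first 4 rose and the last 4 fell.
Zfp651 (GRCm38.p6, chr9:121759953-121760032, plus strand): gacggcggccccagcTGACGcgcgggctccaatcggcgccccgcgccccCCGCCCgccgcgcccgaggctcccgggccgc
Zfp954 (GRCm38.p6, chr7:7121477-7121556, minus strand): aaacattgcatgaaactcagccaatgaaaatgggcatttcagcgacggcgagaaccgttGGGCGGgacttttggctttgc
Zfp791 (GRCm38.p6, chr8:85123096-85123175, minus strand): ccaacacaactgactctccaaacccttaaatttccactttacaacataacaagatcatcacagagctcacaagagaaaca
Zfp292 (GRCm38.p6, chr4:34882949-34883028, minus strand): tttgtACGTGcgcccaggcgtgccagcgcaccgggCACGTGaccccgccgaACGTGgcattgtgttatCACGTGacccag
Zfp866 (GRCm38.p6, chr8:69774912-69774991, minus strand): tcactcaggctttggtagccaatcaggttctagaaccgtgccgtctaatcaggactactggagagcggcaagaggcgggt
Zfp326 (GRCm38.p6, chr5:105876488-105876567, plus strand): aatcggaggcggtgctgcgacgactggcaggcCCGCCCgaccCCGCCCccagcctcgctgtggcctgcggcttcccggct
Zfp626 (GRCm38.p6, chr7:27807116-27807195, plus strand): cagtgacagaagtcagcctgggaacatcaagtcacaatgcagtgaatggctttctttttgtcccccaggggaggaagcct
Zfp239 (GRCm38.p6, chr6:117861944-117862023, plus strand): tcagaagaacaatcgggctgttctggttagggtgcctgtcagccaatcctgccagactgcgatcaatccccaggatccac

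Over whole windows, 9 motifs were searched on both strands, and the shares with at least 1 match are descriptions. GGGCGG, bound by the SP family, was in 50.9% of the 165 member windows, in 67.6% of 7538 windows of protein-coding genes with a mean count of at least 100, and in 35.9% of all 27025. CCGGAAG, an ETS core, was in 21.2% of member windows, 21.3% of those of expressed genes and 9.12% of all. It was in 26.9% of the 52 windows of members that rose over time and 12.7% of the 63 of members that fell. In the 50 windows of members not called over time it was in 26%. The members' windows were thus close to those of expressed genes for the ETS core and below them for GGGCGG.

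The core of the site bound by hypoxia-inducible factors, ACGTG, was in 27.3% of member windows, 27.7% of those of expressed genes and 19.7% of all, and in 34.6% of risers and 22.2% of fallers. The E-box CACGTG, which contains ACGTG, was in 9.7%, 11.1% and 7.24% of the same 3 sets. The printed stretch of Zfp292 holds both. The short CRE core TGACG was in 34.6%, 34.9% and 21.02%, and TGACGTCA, the full CRE that contains it, in 3.64%, 3.58% and 1.88%. TGANTCA, the AP-1 site, was in 4.85%, 4.75% and 7.93%, the ZNF143 core ACTACAA in 6.06%, 5.07% and 3.45%, and the palindromic NRF1 core in 4.24%, 2.47% and 0.977%. Among risers and fallers over time the shares were 46.2% and 55.6% for the SP core, 9.62% and 11.1% for the E-box, 30.8% and 38.1% for the short CRE core, 3.85% and 4.76% for the full CRE, 1.92% and 3.17% for the AP-1 site, 9.62% and 7.94% for the ZNF143 core, and 9.62% and 3.17% for the NRF1 core. In the 50 windows of members not called over time ACGTG was in 26%. There the motifs just listed had shares of 50%, 8%, 34%, 2%, 10%, 0% and 0%, in the same order. The NRF1 core rested on 5 windows of risers and 2 of fallers, and the full CRE on 2 and 3. No such difference was tested. For the motifs other than the SP core the member share lay within 2 percentage points of that of expressed genes. The median GC content of the windows was 56.3% in members, 61.3% in expressed genes and 52.7% in all genes.

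Members with known roles moved both ways over time. Of 25 members known for binding promoters or as parts of chromatin complexes, 11 rose and 8 fell, which is 76% of them beside 63.1% of all tested genes and 68.6% of comparably expressed ones, with a median log2 fold change of 0.16 against -0.00088 over all tested genes. Among the risers besides Zfp703 were Zfp407 with 0.82 (adjusted p = 3.51e-08), Zfp410, which in mice activates the chromatin remodeller gene Chd4, with 0.53 (adjusted p = 9.62e-07), Zfp384 with 0.46 (adjusted p = 2.32e-06) and Zfp148 with 0.45 (adjusted p = 2.68e-05). Zfp462, Zfp367 and Zfp131 rose by 0.90, 0.63 and 0.38, and the remaining 3 risers, Zfp335, Zfp609 and Zfp644, rose by 0.23, 0.20 and 0.27. Among the fallers were Zfp687 with -1.02 (adjusted p = 2.56e-09), Zfp746, a KRAB protein that represses the gene of PGC-1α, with -0.90 (adjusted p = 7.13e-06), Zfp219 with -0.86 (adjusted p = 8.1e-08), and Zfp318 with -0.48 (adjusted p = 3.37e-06). Zfp516, Zfp24, Zfp639 and Zfp143 fell by 0.45, 0.34, 0.30 and 0.20 on the log2 scale. Zfp687 overlaps Pi4kb and Zfp335 overlaps Pcif1 on the opposite strand.

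Some calls over time were lost when 1 library at 6 h was left out, each with the same direction. Without the control library at 6 h the calls of Zfp131 (adjusted p 0.101), Zfp644 (0.136), Zfp658 (0.162), Zfp707 (0.158) and Zfp830 (0.117) were lost. Without the 10panx1 library at 6 h those of Zfp106 (0.257), Zfp335 (0.0717), Zfp609 (0.136) and Zfp639 (0.36) were lost. In these fits the log2 fold change went from 0.38 to 0.18 in Zfp131, from 0.87 to 0.33 in Zfp658, from 0.15 to 0.093 in Zfp106 and from -0.30 to -0.13 in Zfp639. It stayed within 1.5 times in the other 5, for instance from 0.23 to 0.20 in Zfp335 and from 0.34 to 0.29 in Zfp707, and a call lost with fewer libraries does not show that the change rested on the library left out. Zfp143 kept its call only without control replicate 1 at 9 h, with adjusted p values of 0.0571 to 0.334 without each of the other 7 libraries in turn. Zfp106 and Zfp609 changed sign when trends of length and GC were removed, to log2 fold changes of -0.18 and -0.042.

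Of 9 members with roles in RNA or ribosome biology, 1 rose and 3 fell over time, or 44.4%, beside 63.1% of all tested genes, with a median log2 fold change of -0.041. Zfp106 rose by 0.15 with the limits given above. Besides Zfp326, Zfp638, a nuclear RNA-binding protein that also silences unintegrated retroviral DNA, had a log2 fold change of -0.42 (adjusted p = 0.000101), and Zfp830, known from splicing complexes, -0.35 (adjusted p = 0.00291). Zfp36 lay at 72 and 87.7 CPM at 6 h and at 71.9 to 89.1 CPM at 9 h, with overlap and a log2 fold change of 0.025 (SE 0.0561, edgeR adjusted p = 0.71).

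The 3 members known for imprints or retroelements were all called over time, where 63.1% of all tested genes were, and none with 10panx1, where 9.21% were. A set of 3 genes is too small to be read against those shares. Zfp445, which guards genomic imprints, fell from 98.7 and 100.2 CPM to 50.4 to 67.8 CPM, a log2 fold change of -0.78 (SE 0.0761, edgeR adjusted p = 1.2e-07). Zfp809, which silences murine leukaemia proviruses in mouse embryonic stem cells, fell from 20.7 and 18.9 CPM to 13.5 to 15.2 CPM, with -0.49 (SE 0.0913, edgeR adjusted p = 0.000162). Zfp568, which represses a placental transcript of Igf2, rose from 40.3 and 46 CPM to 54.8 to 65.5 CPM, with 0.46 (SE 0.0744, edgeR adjusted p = 3.99e-05). That these 3 transcripts were present is no finding, since the member rule asked for a mean raw count of at least 100.

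The members were then split by the KRAB box, a feature that the member rule did not use. The deposited annotation names 90 members as KRAB domain proteins, a pattern search in their translated transcripts found the box in 80, both marked 69, and either marked 101. With 10panx1 at 9 h, 0 of the 101 KRAB members were higher and 3 lower (2.97%), and 5 of the 99 other members were higher and 4 lower (9.09%). The background was 9.21% of all tested genes, 5.06% higher and 4.14% lower, and 11.7% of comparably expressed ones, so the members without KRAB lay at the share of all genes and the KRAB members below it. The members marked by the annotation and those marked by the box both lie within the 101, and the 3 lower members carry both marks. The split of 0 and 3 under either mark was thus fixed and adds no support. Over time 33 KRAB members rose and 35 fell, and 32 others rose and 41 fell, or 67.3% and 73.7% beside 63.1% of all tested genes and 68.6% of comparably expressed ones, with median log2 fold changes of 0.081 and -0.063. The difference between both sets was not tested. KRAB members had lower counts, with a median mean count of 221.6 against 605.9, and lower GC content, 42.03% against 49.9%, and the part of these in the counts of calls was not tested.

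C2H2 fingers were counted as matches to the spacing pattern given below, in the translated transcripts of the 199 members with a coding transcript in GENCODE M21. Zfp469 had no such transcript. Fingers with other spacing were missed, so a number may be too low and a member may belong in a higher class. The median was 10 matches, the highest 33, in Zfp462, and 9 members had no match, among them the CCCH protein Zfp36. KRAB members had a median of 12 matches and the others 7. Over time 31 of 43 members with 0 to 4 matches were called (72.1%) and 41 of 51 with 5 to 9 (80.4%). So were 43 of 64 with 10 to 14 (67.2%) and 26 of 41 with 15 or more (63.4%). The background was 63.1% of all tested genes and 68.6% of comparably expressed ones. Differences between these classes were not tested. Rises and falls occurred in each of these 4 classes.

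**Figure D4:**
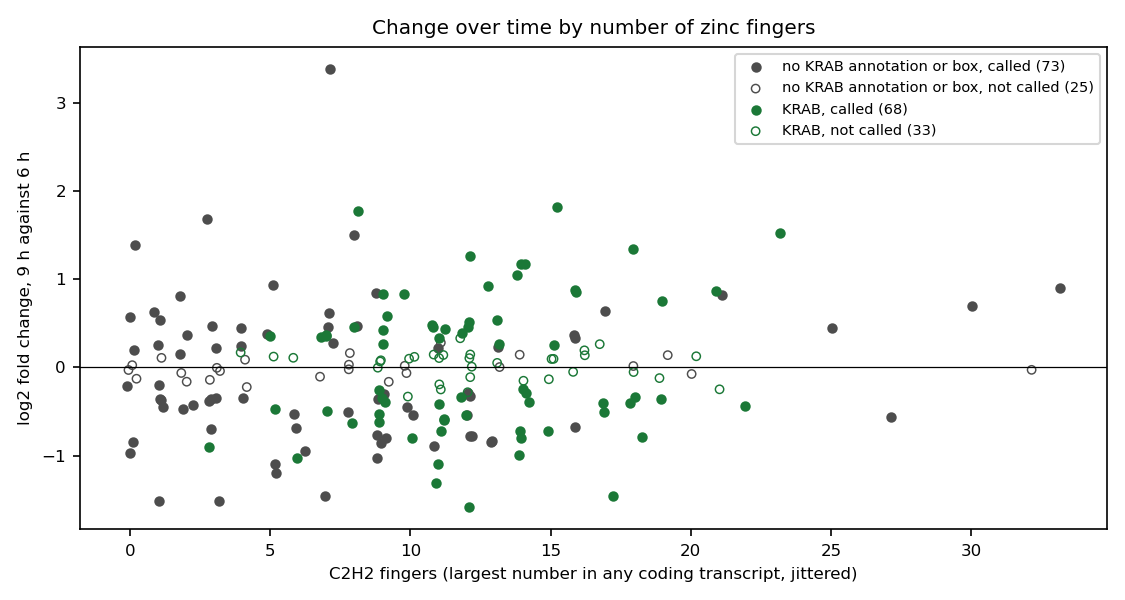
Each point is 1 of 199 members. The x axis gives the number of matches to the C2H2 finger pattern (points are spread sideways), and the y axis the log2 fold change of 9 h against 6 h. Green marks KRAB members and grey the others, filled points are called. Among the 68 KRAB members and 73 others called, rises and falls occur at low and at high numbers of matches.

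Zfp genes lie in clusters that arose by duplication, and the members did too. Chromosome 7 held 47 members and chromosome 17 held 24. With a gap of at most 250 kb between neighbours, 9 clusters had at least 4 members, 51 in all, of which 41 were KRAB members. By the same positions a cluster of 7 KRAB members on chromosome 17 spans 22098551 to 22675670. Of these Zfp944, Zfp946, Zfp994, Zfp942 and Zfp995 fell over time, with log2 fold changes from -1.09 to -0.39, and Zfp943 and Zfp758 had 0.15 and 0.33 without a call. Members of this cluster share 50-base stretches with other genes, with Zfp995 at 19.7%, Zfp994 at 18.2%, Zfp944 at 10.4% and Zfp942 at 8.99%, and Zfp942 and Zfp944 shared most with each other, so that their changes may not be separate measurements. A cluster of 7 members on chromosome 7 spans 126832233 to 127485168. There Zfp768, Zfp668, Zfp646, Zfp553 and Zfp771 fell, by 0.80 to 0.50 on the log2 scale, Zfp747, which shares 36.9% of its 50-base stretches with another gene, rose by 0.42, and Zfp629 had 0.14 without a call. These 2 clusters were chosen for description after their values were seen. In the other 7 clusters, which hold the rest of the 51 members, 10 members rose and 11 fell. Over all tested genes 31.6% rose and 31.5% fell. Clusters of 7 members picked in this way cannot be read against those shares.

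Duplication also leaves similar sequences. In 34 members at least 5% of the 50-base stretches of their transcripts occurred in another gene, and in 14 at least 20%. None of the 34 was called with 10panx1, beside 6.67% of the 165 members under 5% and 9.21% of all tested genes. Over time 9 of the 34 rose and 14 fell, or 67.6%, against 56 and 62 of the 165, or 71.5%. The share over all tested genes was 63.1%, and no difference between these sets was tested. Zfp991, at 86.7%, and Zfp984, at 54.6%, had the largest shares, and neither was called over time.

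The partners of KRAB proteins and other zinc finger families were described beside the members. Of 24 KRAB corepressors and writers of closed chromatin, 4 rose and 11 fell over time, or 62.5%, near the 63.1% of all tested genes. Cbx5 (HP1α), which binds methylated histone H3, fell from 348 and 349 CPM at 6 h to 255 ± 11.1 CPM at 9 h, and Wiz and the deacetylase Hdac1 rose by 0.46 and 0.40 on the log2 scale. With 10panx1 at 9 h 2 were higher and 1 lower, or 12.5% beside 9.21% of all tested genes. Chd3, a NuRD remodeller, rose from 127 ± 7.54 to 153 ± 6.27 CPM (SD, n = 3 each; edgeR adjusted p = 0.00879), Chd4 from 477 ± 22.2 to 535 ± 3.12 CPM (adjusted p = 0.0365), and Atf7ip, a partner of Setdb1, fell from 25.3 ± 2.96 to 20.1 ± 1.34 CPM (adjusted p = 0.0363). Of 4 genes of the HUSH silencing complex, Tasor and Pphln1 (50%, beside 63.1% of all tested genes) fell over time, by 0.37 and 0.31 on the log2 scale, and none was called with 10panx1.

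A list of 21 genes held CCCH proteins and Cnot genes of the CCR4-NOT deadenylase, which shortens poly(A) tails. It also held Tob1, Tob2, Btg1, Btg2, Dcp1a, Dcp2, Edc4 and Xrn1, which are neither. Of the 21 genes 9 rose and 8 fell over time, or 81% beside 63.1% of all tested genes. With 10panx1 none was higher and 4 were lower, or 19%, beside 5.06% of all tested genes higher and 4.14% lower. These included the CCCH protein Zfp36l2, a relative of Zfp36, from 47.3 ± 3.46 to 36.7 ± 5.75 CPM (adjusted p = 0.0295), Tob1 from 35.2 ± 4.49 to 23.5 ± 2.73 CPM (adjusted p = 0.00306) and Tob2 from 90.5 ± 2.38 to 75.3 ± 7.68 CPM (adjusted p = 0.0195), all by edgeR with n = 3 each. Btg1 rose over time from 110.2 and 116 CPM at 6 h to 287 ± 37.1 CPM at 9 h. Zfp36l1, also a relative of Zfp36, was the remaining gene called lower with 10panx1 at 9 h, with a log2 fold change of -0.47 (edgeR adjusted p = 0.0344). Its control replicate 3 lay at 47.8 CPM, above the other controls at 33.9 and 30.9 CPM. The direction at 9 h in Zfp36l1 and Zfp36l2 was thus opposite to the sign of Zfp36 itself, which was not called. No Cnot gene of the list was called with 10panx1.

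Of 32 Zbtb genes with a mean count of at least 100, 4 were higher and none lower with 10panx1 at 9 h, or 12.5%, near the 11.7% of protein-coding genes with that mean count, among them Zbtb38, which binds methylated DNA, from 46.8 ± 2.4 to 61.6 ± 3.88 CPM (edgeR adjusted p = 0.00321, n = 3 each). Over time 10 rose and 13 fell, or 71.9% beside 68.6% of such genes, and Zbtb7b fell most among those named, with a log2 fold change of -1.35. Of 6 Zkscan genes 1 was higher with 10panx1, Zkscan14, which is 16.7%, and 2 rose and 3 fell over time, which is 83.3%. Of 8 Zscan genes none was called with 10panx1, and 4 rose and 2 fell over time (75%), with Zscan2 going from 1.44 and 1.91 CPM at 6 h to 7.01 ± 0.686 CPM at 9 h. Sets of 6 and 8 genes are too small to be read against the 11.7% and 68.6%.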

How the data were processed

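Per the labels' protocols, poly(A) RNA of BV2 cells went into strand-marking libraries. The deposited table gives read counts per gene as whole numbers, and a further table gives TPM, scaled by the authors. Per the submitters' processing notes, the tools were STAR, featureCounts, Trimmomatic, FastQC and DESeq2. How strand and multiply mapped reads were counted is not given in the sources used here. Of 57010 rows, 151 that repeated a symbol were dropped. Sampling noise was exceeded between all replicates at 9 h (chi-square per degree of freedom 4.03 to 7.04).

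Counts were tested over all genes with edgeR 4.0.16 (TMM, filterByExpr, quasi-likelihood, Benjamini-Hochberg, threshold 0.05). The comparison at 9 h used its 6 libraries and no block. Time and the interaction used all 8. Levels are TMM-scaled CPM, and a prior count of 2 entered the ratios at 6 h. Alternatives used DESeq2 1.42.0, limma 3.58.1 on TPM, RLE scaling, no filter, a replicate block and leaving out libraries. Replicate numbers were not used to pair the samples in the main fits. R 4.3.3, Python 3.11.15 and pandas 2.3.3 were used, and the tests were checked on simulated data.

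Members and lists were chosen with earlier results of these data known. Named members are the up to 10 largest called rises and falls per comparison (over time, without overlap), the 5 of highest TPM, the 3 on each side of the limit and called genes of the lists. Fingers were matched as C, 2 residues, C, 12 residues, H, 3 to 5 residues, H in translated GENCODE M21 transcripts. A first, stricter KRAB pattern missed more of the annotated members and was replaced, and the combination of annotation and box was made the main split after counts for the box alone had been seen. The comparison of promoters with expressed genes was added after shares against all genes had been seen, and genes first picked by hand for printed promoters were replaced by a rule when some had no entry. Classes of finger number, the cluster gap, the levels of shared sequence, the protein-coding background and the fit without length and GC trends were set after the files were seen.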

Additional observations from a re-analysis of the deposited data

How the results depend on the processing

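With 10panx1 at 9 h, 5 members were higher and 7 lower. Without a filter on low counts 10 and 8 were, with the replicate block 11 and 10, with all 8 libraries in the fit 5 and 4, with limma on log2(TPM + 1) or log2(TPM + 0.1) 0 and 2, and with limma on log2(TPM + 1) without a TPM filter 0 and 0. Leaving out each library in turn gave 3 to 12 higher and 2 to 7 lower. RLE scaling gave 6 and 7, DESeq2 6 and 6, and removal of length and GC trends, added after the data were seen, 6 and 9. Calls over all genes also varied, with 1233 in the main fit, 1792 without the filter, 1850 with the block and 1039 with all 8 libraries. The limma fits on log2(TPM + 1) and log2(TPM + 0.1) called 368 and 371 genes, and that without a TPM filter 0. Leaving out each library gave 598 to 1433, RLE scaling 1240, DESeq2 1305 and removal of length and GC trends 1209. The cause of these differences was not tested.

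For 9 h against 6 h, 65 were higher and 76 lower, 40 and 76 with limma on log2(TPM + 1) without a TPM filter, 53 and 62 in control libraries alone, 50 and 55 in 10panx1 libraries alone, and 49 to 64 higher and 58 to 77 lower without 1 library. Over all genes 9037 were called in the main fit and 8756 in the limma fit without a TPM filter. Calls of 41 of 51 named members were kept in each alternative. Zfp106 and Zfp609 turned to -0.18 and -0.042 without length and GC trends. No interaction was called for a member in any alternative, although 34 genes were without a filter.

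Replicate numbers were not used for pairing, since same-numbered libraries at 9 h had deviations correlated by 0.094, -0.0071 and 0.074, and not every library correlated best with its own number. There was 1 library per treatment at 6 h, which limits the comparisons over time and the interaction, and the lowest count of a member in a library was 24, which limits precision for such members.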
